A study of Mus musculus with 8 samples.

Results

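Homeobox factors outside the Hox clusters were described in mouse liver mesenchyme and in 2 other mesenchymal cell types. The set held 48 genes chosen by name, of 20144 named genes on the array, and every one of the 48 had a probe. The choice was made with earlier results of these data known. Shares of the set beside those of all genes are therefore descriptive only. They were the Alx, Barx, Dlx, Emx, Irx, Lhx, Meis, Meox, Msx, Nkx, Pbx and Prrx genes listed for this work together with Six2, Six4, En1, Gbx2, Gsc, Hhex, Hlx, Isl1, Lmx1b, Pitx1 and Shox2. Total RNA had been hybridised to 8 one-colour (Cy3) microarrays, 1 array for each of 8 groups, so no group had a replicate. On 5 arrays the RNA came from liver cells sorted as p75NTR-positive, CD45-negative and Ter119-negative, taken from fetuses at an early (E11.5 or E13.5) or later (E14.5 or E17.5) day and from newborns (P1). The adult HSC array held adult hepatic stellate cells sorted from liver by their vitamin A. The MEF array held fibroblasts cultured from embryonic skin, and the MSC array held purified mesenchymal stem cells of bone marrow. The labels named no allele, drug or other treatment for any group, and strain, sex, the age of the adults and pooling of animals are not given in the sources used here.

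Homeobox genes encode transcription factors that bind DNA through a homeodomain. Those of the Hox clusters give cells their place along the body axis, and those outside the clusters are scattered or sit in small groups and act in the formation of single organs and regions. In the fetal liver, Hlx is made in the mesenchyme of the septum transversum and is needed for growth of the mouse liver and gut, Lhx2 is made in stellate cells and its loss leaves mouse fetal livers fibrotic, and Hhex is needed in the endoderm for the liver bud to form. Meis and Pbx proteins bind DNA together with Hox proteins. Most other members are best known from the face, limbs, skin, heart, gut wall, spleen or brain.

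A gene's level is the log2 of its spot signal minus the log2 of the array's 75th percentile signal, so that 0 is the 75th percentile and each unit is a doubling. Levels of different genes come from different probes and were not set against each other. Between 58.8% and 64.5% of the 43020 non-control spots were well above background on each array by the scanner software's own call, none was saturated, and the lowest signal well above background lay between -6.58 and -5.36. A member below background on 1 side of a comparison has only a bound there, and its difference is given as at least so many fold, against that lowest signal or the probe's own value if higher. Where a side holds several arrays, the bound is one between the means of the sides. All 14 stellate cell markers were above background on each liver-derived array, with a summed signal of 208 to 1500 times the 75th percentile, against 48.5 on MEF (11 of 14) and 14.8 on MSC (7 of 14). Other cells' markers were not evenly spread over the liver-derived arrays. Without Dlk1, the brightest of them and also high on MEF, hepatocyte markers summed to 10.4, 366, 1120, 104 and 67.1 from E11.5 to P1, to 4.66 on adult HSC, 2.85 on MEF and 1.16 on MSC. With Dlk1 the sums were 216, 533, 1330, 294 and 253 from E11.5 to P1, 4.67 on adult HSC, 125 on MEF and 51.5 on MSC. Pancreas markers summed to 80.6 at P1 and at most 5.27 on the other liver-derived arrays. Endothelial markers summed to 265 on adult HSC against 19.5 to 67.5 on the p75NTR arrays, and to 54.4 against 6.49 to 30.5 without Plvap, their brightest gene, while their median difference between adult HSC and P1 was 0.54, with 3 of 14 at least 4-fold higher and 1 lower. The 4 fetal arrays shared 1 slide and scan, and P1, adult HSC, MEF and MSC shared the other.

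Most of the homeobox factors were detected on some array, and fewer on every array. Of the 48 genes, 44 were above background on at least 1 array (91.7%, against 82% of all named genes), 14 on all 8 arrays (29.2%, against 56%) and 15 on all 6 liver-derived arrays (31.2%, against 58.9%). From E11.5 to P1, 35, 31, 33, 28 and 33 of the 48 were above background, adult HSC had 19, MEF had 39 and MSC had 33. Adult HSC had the fewest, 39.6% of the set against 65.1% of all named genes on that array, and on the other 7 arrays the set's share lay between 58.3% and 81.2%, against 67.1% to 72.2% of all named genes. The genes below background on all 8 arrays were Emx1, a cortical factor, En1, a factor of the midbrain and of limb ectoderm, Gbx2, a factor of the hindbrain boundary, and Nkx3-2, a factor of the axial skeleton and spleen. Their levels lay between -8.58 and -5.30. In bulk RNA of this kind, fewer cells that make a transcript and less transcript per cell cannot be told apart.

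**Figure D1:**
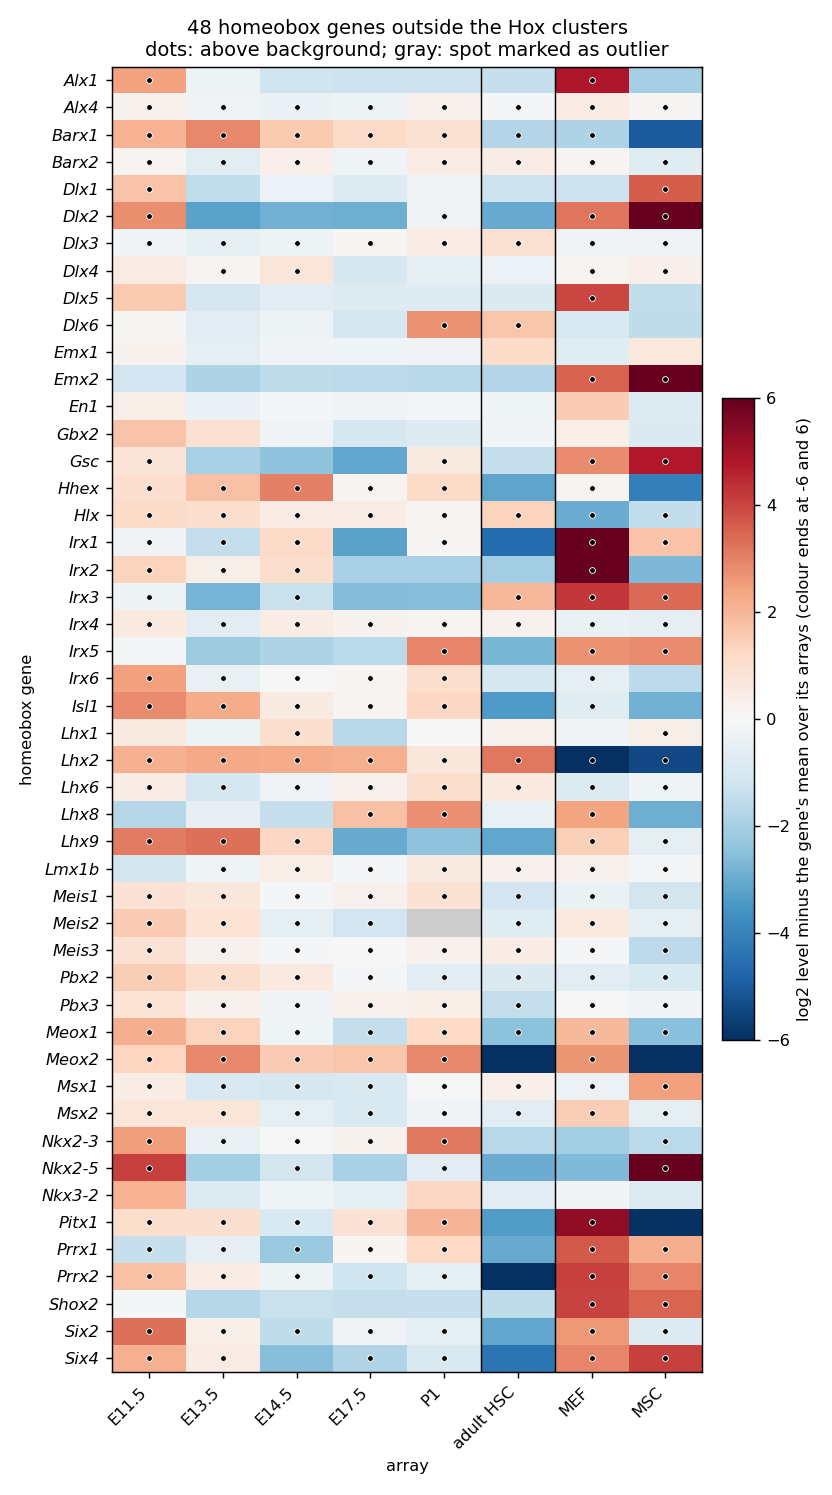
Level of each of the 48 homeobox genes (rows) on the 8 arrays (columns), as the log2 level minus the gene's own mean over its arrays, with a dot where the gene was above background and gray where the spot was marked as an outlier (Meis2 at P1). Lhx2 and Hlx are lower on MEF and MSC than on all 6 liver-derived arrays, Emx2 and Shox2 carry dots on MEF and MSC only, and the adult HSC column has 19 dots against 28 to 35 in the p75NTR columns.

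The first comparison asked which members separated the 6 liver-derived arrays from MEF and MSC. Lhx2, the LIM homeobox gene of stellate cells, and Hlx, the gene of septum transversum mesenchyme, were higher on the liver-derived side, and Emx2, a factor of the urogenital tract, forebrain and shoulder girdle, and Shox2, a factor of the limb, palate and sinus node, were lower. Lhx2 stood at 4.78, 4.92, 4.86, 4.75 and 3.30 from E11.5 to P1 and at 5.80 on adult HSC, against -4.60 on MEF and -2.81 on MSC. All 6 liver-derived values lay more than 6 log2 units above the higher of the other pair. The mean difference was 8.44 ± 0.68 (SE), which is 347-fold (limma, adjusted p = 0.00205). Hlx stood at 0.88, 0.75, 0.27, 0.23 and -0.09 from E11.5 to P1 and at 1.15 on adult HSC, against -3.17 on MEF and -1.69 on MSC. The 6 liver-derived values of Hlx spanned little more than 1 log2 unit and did not reach either of the others, a difference of 2.96 ± 0.48 (SE), or 7.79-fold (limma, adjusted p = 0.0321).

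Emx2 was below background on each liver-derived array, at -7.14, -7.81, -7.50, -7.56 and -7.62 from E11.5 to P1 and -7.75 on adult HSC, against -2.45 on MEF and 0.08 on MSC. Against the mean of MEF and MSC it was at least 24.3-fold lower in the liver-derived cells (limma difference of measured levels -6.38 ± 0.58 SE, adjusted p = 0.00349). The bound against MEF alone would be smaller. Shox2 was likewise below background on the 6 liver-derived arrays, at -6.84, -8.40, -8.06, -8.15 and -8.09 from E11.5 to P1 and -8.24 on adult HSC, against -2.67 on MEF and -3.22 on MSC. Against the mean of MEF and MSC it was at least 7.20-fold lower (limma difference -5.02 ± 0.44 SE, adjusted p = 0.00293). Both Emx2 and Shox2 entered the fit only through MEF and MSC. Their liver-derived values are background readings, so the bounds, rather than the p-values, describe them. Apart from Emx2 and Shox2, the only member detected on MEF or MSC and on no liver-derived array was Dlx5, a factor of the jaw and limb, seen on MEF alone, and these 3 were 6.25% of the set, against 3.72% of all named genes.

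These 4 were the only calls among the 44 members tested, 2 higher and 2 lower. Over the whole array 1.57% of 16519 genes passed, 0.848% higher and 0.726% lower, and 19.6% had an unadjusted p under 0.05, against 13 of the 44 members. The median difference was -0.13 over the members tested and 0.02 over all genes. The spread behind these p-values is that between stages and between cell types, since no group had a replicate. For Emx2 and Shox2 it is a spread of background readings on the liver-derived side. With slide as a block, Lhx2, Shox2 and Emx2 had limma adjusted p-values of 0.0214, 0.0202 and 0.0272, while Hlx had 0.109 at the same difference of 2.96. The fetal slide held liver-derived arrays only. The block fit thus took its difference from P1 and adult HSC against MEF and MSC, and the fetal arrays added only to its spread. It therefore cannot check the fetal arrays against the slide. Hlx also missed the threshold when any of the 4 fetal arrays was left out, with adjusted p = 0.0604 without E11.5, 0.0856 without E13.5, 0.0826 without E14.5 and 0.0807 without E17.5 (limma), at differences of 2.89 to 3.02. The sizes also depended on which of MEF and MSC was kept, as the lone array is then assumed to vary like the others: Lhx2 was 186-fold higher without MEF and 648-fold without MSC, Hlx 4.69-fold and 13-fold, and the log2 difference of Emx2 was -7.64 and -5.11, all with a limma adjusted p under 0.05. Within the slide that held P1, adult HSC, MEF and MSC no gene passed. The limma adjusted p-values there were 0.362 to 0.541 for the 4 members, at differences of 8.25 (Lhx2), 2.96 (Hlx), -6.5 (Emx2) and -5.22 (Shox2). With normexp background correction of the median signals, Emx2 (-1.14, limma adjusted p = 0.525) and Shox2 (-0.22, 0.854) missed the threshold, as did Hlx (2.16, 0.0935).

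Promoters of the 4 genes that passed are shown because they are the members whose sides the test separated. Each is the RefSeq window of 300 bases around the gene's start, in build GRCm38.p6 and on the gene's own strand. Lhx2 lies at chr2:38339031-38339330 (plus strand, the first of 2 listed starts), Hlx at chr1:184732444-184732743 (minus strand), Emx2 at chr19:59458440-59458739 (plus strand) and Shox2 at chr3:66981722-66982021 (minus strand). Capitals mark a match on either strand to TAATTA, the homeodomain core, or to TGACAG, a core bound by Meis and TGIF proteins, AGATAA, a core bound by Gata proteins, or CAGCTG, an E-box. No matches of different motifs overlap in these windows.
Lhx2: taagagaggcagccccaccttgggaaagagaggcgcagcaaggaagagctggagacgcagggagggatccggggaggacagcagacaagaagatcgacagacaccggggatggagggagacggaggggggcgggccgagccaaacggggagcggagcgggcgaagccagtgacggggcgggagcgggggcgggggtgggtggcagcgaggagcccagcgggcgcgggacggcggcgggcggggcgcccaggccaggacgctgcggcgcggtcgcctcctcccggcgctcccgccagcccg
Hlx: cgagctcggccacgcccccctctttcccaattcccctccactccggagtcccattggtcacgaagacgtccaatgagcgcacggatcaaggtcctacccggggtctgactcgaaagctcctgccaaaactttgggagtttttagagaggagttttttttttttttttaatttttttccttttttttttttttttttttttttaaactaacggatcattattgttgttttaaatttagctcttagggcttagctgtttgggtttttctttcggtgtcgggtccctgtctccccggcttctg
Emx2: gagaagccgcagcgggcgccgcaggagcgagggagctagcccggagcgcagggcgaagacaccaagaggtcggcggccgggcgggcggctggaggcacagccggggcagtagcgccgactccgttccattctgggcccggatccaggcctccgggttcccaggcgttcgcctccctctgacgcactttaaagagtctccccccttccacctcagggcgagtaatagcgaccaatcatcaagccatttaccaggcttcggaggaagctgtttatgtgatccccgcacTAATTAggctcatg
Shox2: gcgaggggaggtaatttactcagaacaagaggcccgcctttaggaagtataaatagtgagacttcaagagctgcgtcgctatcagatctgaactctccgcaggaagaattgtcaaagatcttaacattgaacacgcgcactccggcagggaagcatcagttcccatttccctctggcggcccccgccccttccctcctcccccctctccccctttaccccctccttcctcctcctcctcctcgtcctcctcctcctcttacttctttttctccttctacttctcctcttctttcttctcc
Emx2 held 1 TAATTA, and the other 3 windows held none of the 4 motifs. GC content was 74.7% in the Lhx2 window, 44.3% in Hlx, 64.3% in Emx2 and 53.3% in Shox2, with 34, 14, 26 and 11 CpG. TAATTA occurred in 5.29% of 32851 mouse promoter windows and in 3 of the 35 members that had a window (Emx2, Msx2 and Prrx1). TGACAG occurred in 19.2% of all windows and in 6 members, AGATAA in 11.2% and 4, and CAGCTG in 16.3% and 5. The members' windows had a median GC content of 64.7% and a median of 25 CpG, against 52.7% and 7 over all windows.

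Among the members, 12 had liver-derived values that did not overlap MEF and MSC, where 23.3% of all genes did: 3 lay higher, where 12.8% of all genes did, and 9 lay lower, where 10.5% of all genes did. Beside the 4 that passed, the third member on the higher side was Barx1, a factor of stomach mesenchyme, at -1.36, -0.57, -1.89, -2.29 and -2.54 from E11.5 to P1 and -5.21 on adult HSC, against -5.32 on MEF and -8.45 (below background) on MSC. Its adult HSC and MEF values were nearly equal, and the difference of 4.57 ± 1.24 (SE) had an adjusted p of 0.128 by limma. The other 7 on the lower side were Gsc, Irx3, Dlx2, Prrx1, Irx1, Six4 and Prrx2, with adjusted p-values of 0.0814 to 0.262 by limma.

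**Figure D2:**
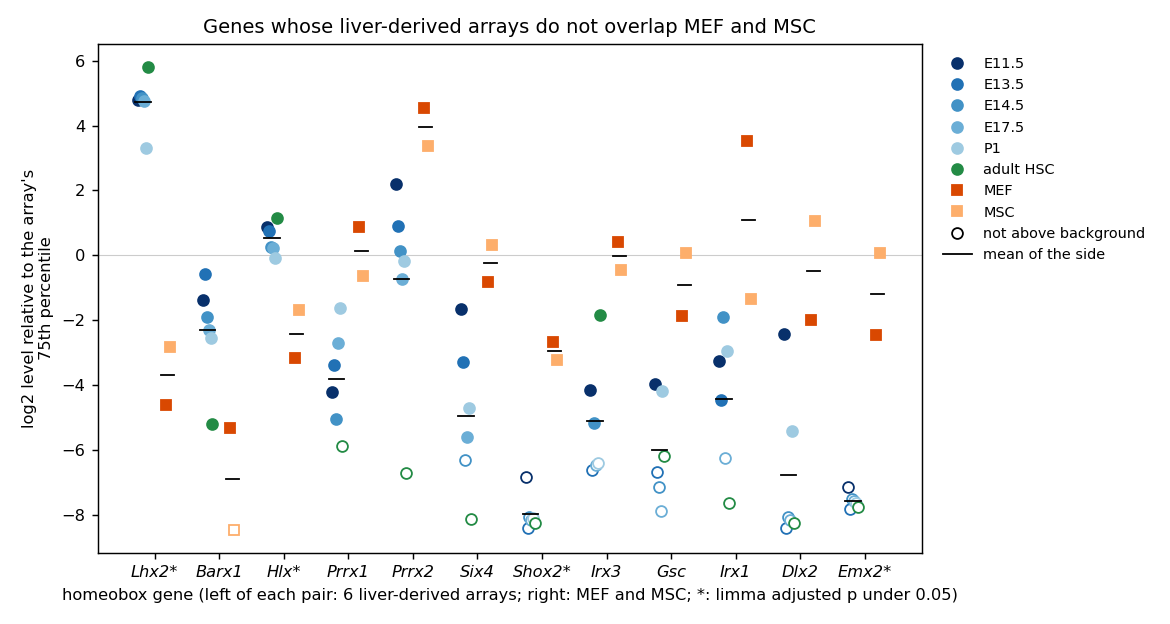
Log2 level of the 12 homeobox genes whose 6 liver-derived arrays (circles, left of each pair) did not overlap MEF and MSC (squares, right), ordered by the difference of the means (black bars), with open symbols where the gene was not above background. Lhx2, Barx1 and Hlx lie higher on the liver-derived side and the other 9 lie lower, with an asterisk at the 4 genes with a limma adjusted p under 0.05.

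Prrx1 and Prrx2 are paired-type factors of limb and facial mesenchyme. Prrx1 stood at -4.21, -3.39, -5.05, -2.70 and -1.61 from E11.5 to P1 and was below background on adult HSC (-5.86), against 0.87 on MEF and -0.63 on MSC. Prrx2 stood at 2.20, 0.89, 0.12, -0.74 and -0.16 from E11.5 to P1 and was below background on adult HSC (-6.71), against 4.53 on MEF and 3.37 on MSC. Prrx1 was thus lowest at E14.5 among the p75NTR arrays and highest at P1, while Prrx2 was highest at E11.5 and lowest at E17.5. The differences were -3.92 ± 1.09 (SE, limma, adjusted p = 0.133) and -4.68 ± 2.06 (SE, limma, adjusted p = 0.262).

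Gsc, the goosecoid factor of the gastrula organizer and later of the face, stood at -3.95 at E11.5 and -4.19 at P1, and was below background at E13.5 (-6.67), E14.5 (-7.14), E17.5 (-7.86) and on adult HSC (-6.17), against -1.87 on MEF and 0.06 on MSC. Six4, a factor of muscle, kidney and sensory ganglia, stood at -1.64, -3.27, -6.30, -5.59 and -4.69 from E11.5 to P1 and -8.13 on adult HSC, against -0.82 on MEF and 0.32 on MSC, with E14.5 and adult HSC below background. Six2, the factor that maintains nephron progenitors, stood at 0.62, -2.34, -4.22, -2.88 and -3.24 from E11.5 to P1 and -5.80 (below background) on adult HSC, against -0.07 on MEF and -3.46 on MSC. All 3 were higher at E11.5 than at E13.5 and E14.5, and Six2 at E11.5 was above its MEF value. The second probe of Six2 was above background at E11.5 and on MEF only.

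The Meis and Pbx genes were above background wherever they were measured. These members encode proteins that bind DNA as partners of Hox proteins. Meis1 stood at 4.03, 3.83, 3.08, 3.39 and 4.03 from E11.5 to P1 and at 1.98 on adult HSC, against 2.73 on MEF and 2.05 on MSC. Pbx3 stood at 2.66, 2.08, 1.69, 2.11 and 2.20 from E11.5 to P1 and at 0.40 on adult HSC, against 1.86 on MEF and 1.65 on MSC. Both were lowest on adult HSC of all 8 arrays, Meis1 by a margin of 0.07 to MSC. Meis3 stood at 1.76, 1.15, 0.79, 0.88 and 1.17 from E11.5 to P1 and at 1.37 on adult HSC, against 0.80 on MEF and -0.65 on MSC. Its MSC value was the lowest by each of its 3 probes, all of them above background on all 8 arrays. The second gave -0.56 at E14.5 and -0.59 on MSC, so that MSC did not lie apart there. The third gave -3.49 at E14.5 and -4.29 on MSC.

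Pbx2 and Meis2 gave the smallest p-values of the set over the developmental series. Pbx2 stood at 3.43, 3.00, 2.53, 1.86 and 1.27 from E11.5 to P1, at 1.09 on adult HSC, 1.33 on MEF and 1.02 on MSC. It was lower at each later stage, and its value at P1 lay close to those of adult HSC, MEF and MSC. Meis2 stood at 3.21, 2.49, 1.15 and 0.52 from E11.5 to E17.5, at 0.96 on adult HSC, 2.24 on MEF and 1.14 on MSC. Its only spot at P1 was marked as an outlier by the scanner software, so the fit dropped that array and used 4. The slope over the order of the stages was -0.55 ± 0.06 per stage for Pbx2 (SE, limma, adjusted p = 0.059) and -0.94 ± 0.11 for Meis2 (SE, limma, adjusted p = 0.0674).

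No member passed in that series, and neither did any other gene: limma gave 0 of 15536 genes an adjusted p under 0.05 and 4360 (28.1%) an unadjusted p under 0.05, and the lowest adjusted p of any gene was 0.059. Of 41 members tested, 8 had a negative slope at an unadjusted p under 0.05, where 15.6% of all genes did, and 2 a positive one, where 12.4% did. The median slope was -0.22 per stage over the members and -0.03 over all genes. Of 24 members above background at all 5 stages, 2 (Pbx2 and Hlx) were lower at each of the 4 steps, where 7.95% of 12687 such genes were, and 0 were higher at each step, where 3.23% were. With limma's mean-variance trend, 3 members passed (Pbx2 adjusted p = 0.0257, Meis2 0.0291 and Lhx9 0.0479), among 1146 genes. Pbx2 alone passed with quantile normalization (adjusted p = 0.0475, limma) and among genes above background at every stage (0.035). Over all alternatives the limma adjusted p reached 0.798 for each of Pbx2, Meis2 and Lhx9. With 1 stage left out at a time, 0 genes passed. The limma adjusted p was then 0.103 to 0.193 for Pbx2, 0.0825 to 0.205 for Meis2 and 0.122 to 0.213 for Lhx9. P1 lay on another slide than the fetal stages, and over the 4 fetal arrays alone the slopes of Pbx2 and Meis2 were -0.52 and -0.94 (limma, adjusted p = 0.103 and 0.0825).

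**Figure D3:**
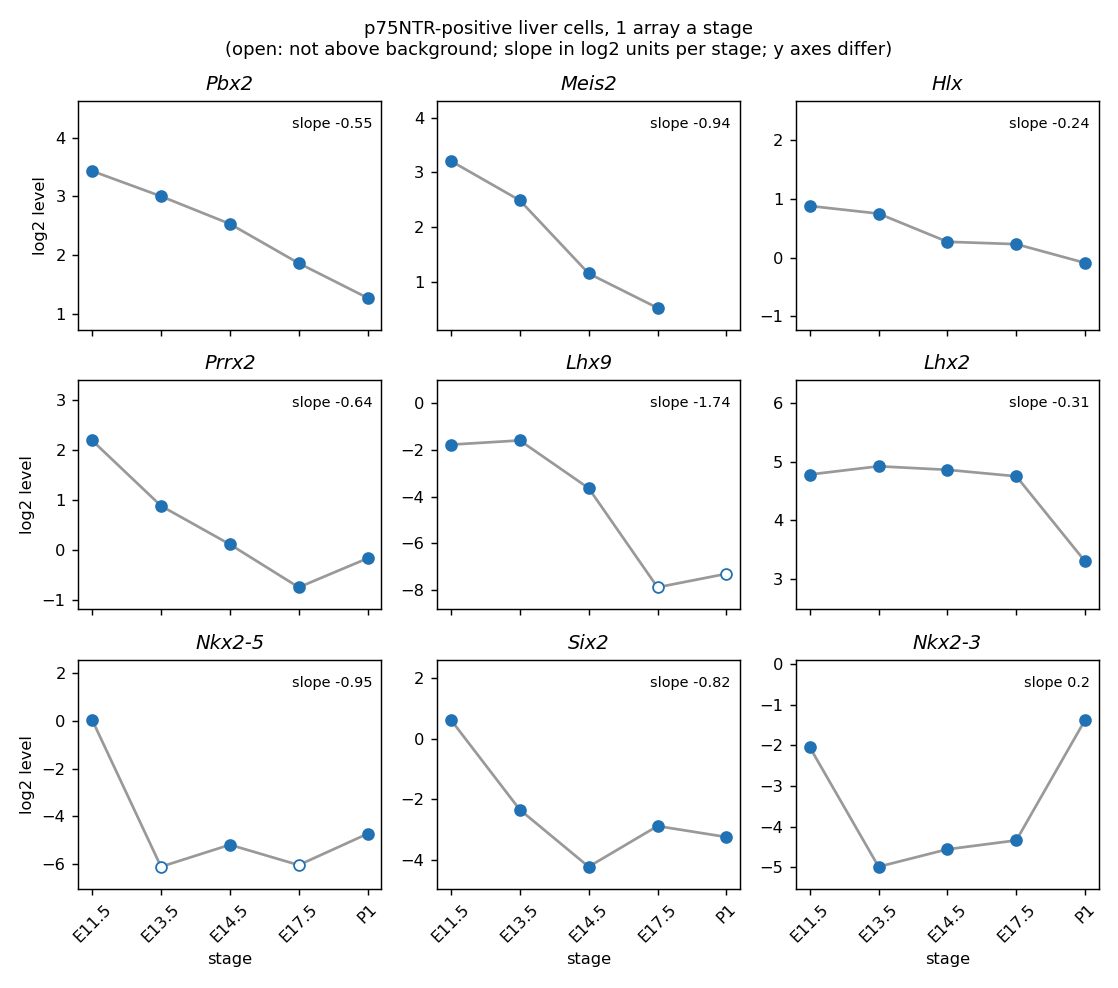
Log2 level of 9 homeobox genes in p75NTR-positive liver cells over the 5 stages, 1 array a stage, with open symbols where the gene was not above background and each panel on its own vertical axis. Pbx2, Meis2 and Hlx are lower at each later stage measured, Lhx2 is lowest at P1, and Nkx2-5, Six2 and Nkx2-3 are higher at E11.5 than at the later fetal stages.

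Other members with sloping levels over the stages, none of which passed the test, came from several families. Lhx9, a LIM factor needed for the gonads, stood at -1.77, -1.59 and -3.64 at E11.5, E13.5 and E14.5 and was below background at E17.5 (-7.90), P1 (-7.32) and on adult HSC (-8.02), against -3.45 on MEF and -5.50 on MSC. Its 3 probes were above background on the same number of arrays and all gave their lowest values at E17.5, P1 and on adult HSC. Lhx8, a LIM factor of cholinergic neurons and of the palate, was below background at E11.5 (-7.59), E13.5 (-6.36) and E14.5 (-7.25) and stood at -4.15 at E17.5 and -3.13 at P1, with -6.32 (below background) on adult HSC, -3.50 on MEF and -8.80 (below background) on MSC. Lhx9 was thus seen up to E14.5 and Lhx8 from E17.5. The slope was -1.74 ± 0.36 per stage for Lhx9 (SE, limma, adjusted p = 0.0812) and 1.11 ± 0.26 for Lhx8 (SE, limma, adjusted p = 0.0935), on levels that were partly below background.

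Isl1, a LIM factor of the second heart field, motor neurons and pancreatic islets, stood at -1.50, -2.09, -3.78, -4.18 and -3.11 from E11.5 to P1 and -7.74 on adult HSC, against -5.06 on MEF and -7.22 on MSC, with adult HSC and MSC below background. Hhex, the factor of the liver bud and of endothelium, stood at -2.58, -1.81, -0.58, -3.40 and -2.45 from E11.5 to P1 and was below background on adult HSC (-6.77), against -3.40 on MEF and -7.70 (below background) on MSC. Hhex was highest on the E14.5 array, as were the summed hepatocyte markers (1330) and Alb, the albumin gene (7.19 at E14.5, between -2.03 and 5.55 at the other 4 stages). The part of these cells in the Hhex values was not tested.

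A set of members was seen at E11.5 and not at E13.5. These 6 were Alx1, Dlx1, Dlx2, Gsc, Irx3 and Nkx2-5, or 12.5% of the set against 1.65% of all named genes. Nkx2-5, the cardiac factor that is also made in spleen mesenchyme, stood at 0.04 at E11.5, -5.19 at E14.5 and -4.73 at P1, and was below background at E13.5 (-6.11), E17.5 (-6.04), on adult HSC (-7.05) and on MEF (-6.72), with 3.13 on MSC. Alx1, a factor of the face, stood at -4.13 at E11.5 and -1.70 on MEF, and was below background at E13.5 (-6.89), E14.5 (-7.74), E17.5 (-7.80), P1 (-7.79), on adult HSC (-7.94) and on MSC (-8.54). Of these 6 genes, Dlx2, Gsc and Nkx2-5 were again above background at P1.

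Markers of some other tissues also had high values at E11.5. The 10 neural crest and glial markers summed to 4.62 at E11.5 (8 above background), 0.685, 0.510 and 1.26 at E13.5, E14.5 and E17.5 (4, 7 and 8 above) and 3.55 at P1 (9 above), against 0.253 on adult HSC, 5.26 on MEF and 0.309 on MSC. Tlx1, a spleen factor, was above background at E11.5 only (-2.09). It is 1 of 8 gut and spleen mesenchyme markers, which also hold the members Nkx2-3 and Barx1. These 8 summed to 8.1 at E11.5 and to 8.15 to 14.8 on the other liver-derived arrays. Without their brightest gene the sums were 2.27 at E11.5 and 1.34 to 1.76 on the others. The part of such cells in the E11.5 values of the homeobox genes was not tested.

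Setting P1 against E11.5, 4 of 38 members compared were at least 4-fold higher at P1, where 9.69% of all genes were, and 10 were at least 4-fold lower, where 4.21% were. Each stage had a single array, which allows no test, and the effect of stage cannot be told apart from that of the slide. The median difference was -0.54 over the members and -0.09 over all genes. Among the 10 lower, both arrays were above background for 6: Dlx2 (7.89-fold), Nkx2-5 (27.2-fold), Pbx2 (4.47-fold), Prrx2 (5.15-fold), Six2 (-3.85 in log2) and Six4 (8.28-fold). The other 4 were below background at P1 and have bounds only: Lhx9 was at least 16.3-fold lower, Alx1 at least 3.17-fold, Irx3 at least 3.14-fold and Irx2 at least 2.11-fold (-1.87 in log2 with the mean of its 2 probes). Among the 4 higher, Prrx1 was above background on both arrays (6.08-fold), and Irx5 was at least 8.32-fold higher, Lhx8 at least 4.68-fold and Dlx6 at least 2.36-fold. Counts depended on the dim probes: 0 higher and 3 lower were found with normexp background correction, and 1 higher and 6 lower among genes above background on both arrays. Markers of other cells differed in the same pair: 13 of 15 pancreas markers compared were at least 4-fold higher at P1 (median 7.49), 9 of 12 hepatocyte markers were higher (median 2.83), and 7 of 15 endothelial markers were lower and 2 higher (median -1.61). Their part in these differences was not tested.

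Nkx2-3, a factor of gut and spleen mesenchyme, was high at both ends of the series. It stood at -2.04, -4.99, -4.56, -4.34 and -1.37 from E11.5 to P1 and -6.21 (below background) on adult HSC, against -6.63 (below background) on MEF and -6.16 on MSC. Neural crest and glial markers also had their highest liver-derived sums at E11.5 and P1, and the pancreas markers were highest at P1, with Amy2a5, a pancreatic amylase, at 4.32 there and 0.24 or below on the other 7 arrays. Their part in the Nkx2-3 values was not tested.

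Adult HSC differed from P1 by at least 4-fold in 20 of the 48 members, and the other 28 lay within 4-fold or were not compared. Of 34 members compared, 18 were at least 4-fold lower on adult HSC, or 52.9%, where 15.9% of all genes were, and 2 were at least 4-fold higher, where 5.21% of all genes were. In either direction 21.1% of all genes differed by that much. The median difference was -2.06 over the members and -0.06 over all genes. Members were chosen with earlier results of these data known, so these contrasts with all genes are no independent support. Of the 48 members, 16 were above background at P1 and not on adult HSC (33.3%, against 9.27% of all named genes), and 9 were above background at all 5 stages and not on adult HSC (18.8%, against 4.13%). Both arrays were on the same slide and the sorts differ, by vitamin A for adult HSC and by p75NTR for P1. Among genes above background on both arrays 3 members were at least 4-fold lower (Barx1, Meox1 and Meis1) and 1 higher. With normexp background correction 3 others were (Meox2 by -3.63, Prrx2 by -2.23 and Pitx1 by -2.07 in log2), and 1 was higher. The P1 array also serves in the comparison with E11.5.

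Meox2, a factor of limb muscle and vessels, had the largest gap in that pair. It stood at -0.73, 0.89, -0.50, -0.36 and 0.89 from E11.5 to P1 and was below background on adult HSC (-8.12), against 0.64 on MEF and -8.78 (below background) on MSC. It was at least 114-fold lower on adult HSC than at P1. Meox1, its relative in the somites, was above background on all 8 arrays, at -0.41, -1.23, -2.81, -3.99 and -1.37 from E11.5 to P1 and -5.05 on adult HSC, against -0.63 on MEF and -5.10 on MSC. It was 12.8-fold lower on adult HSC than at P1. Both Meox genes were thus lowest on adult HSC and MSC.

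Pitx1, the factor of hindlimb identity, stood at -1.72, -1.85, -3.68, -1.94 and -0.75 from E11.5 to P1 and was below background on adult HSC (-6.15), against 2.52 on MEF and -8.73 (below background) on MSC. It was at least 36.7-fold lower on adult HSC than at P1. Prrx2 was at least 54.9-fold lower, Nkx2-3 at least 23.8-fold, Prrx1 at least 19.1-fold, Irx5 at least 18.1-fold and Hhex at least 11.3-fold. Irx1, Isl1, Lhx8 and Six2 were lower by at least 7.95-fold, 7.11-fold, 7.02-fold and 5.90-fold, though Six2 came to -1.78 in log2 with median or quantile normalization and to -1.35 with the mean of its 2 probes, the second of which was below background on both arrays. For Irx6, Six4, Nkx2-5 and Dlx2 the bound lay under 4-fold, between 1.45-fold and 3.35-fold, and Irx6 and Nkx2-5 also fell short of 4-fold with median normalization (-1.29 and -1.53 in log2). Barx1 (6.34-fold) and Meis1 (4.12-fold) were lower with both arrays above background, but fell short of 4-fold under other scaling: Barx1 came to -1.88 in log2 with median, -1.98 with quantile normalization and -0.66 with normexp, and Meis1 to -1.26 with median normalization and -1.98 with normexp.

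The members at least 4-fold higher on adult HSC than at P1 were Irx3, by at least 15.4-fold (1.14 in log2 with normexp), and Lhx2, by 5.67-fold. The adult HSC value of Lhx2 was the highest of the 8 arrays and its P1 value the lowest of the 6 liver-derived ones. Hlx was 1.24 log2 units higher, also with its highest value on adult HSC. Genes within 1 log2 unit in this pair were Alx4, Barx2, Dlx3, Irx4, Lhx6, Lmx1b, Meis3, Msx1, Msx2 and Pbx2. Markers of other cells differed between the same arrays: adult HSC had 3 of 16 pancreas markers above background against 14 at P1, 2 of 10 mesothelial markers against 7, 4 of 10 neural crest and glial markers against 9 and 8 of 13 hepatocyte markers against 12. The pancreas sum was 0.345 on adult HSC and 80.6 at P1, the mesothelial sum 0.5 on adult HSC and 11.1 at P1. Their part in the lower levels on adult HSC was not tested.

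**Figure D4:**
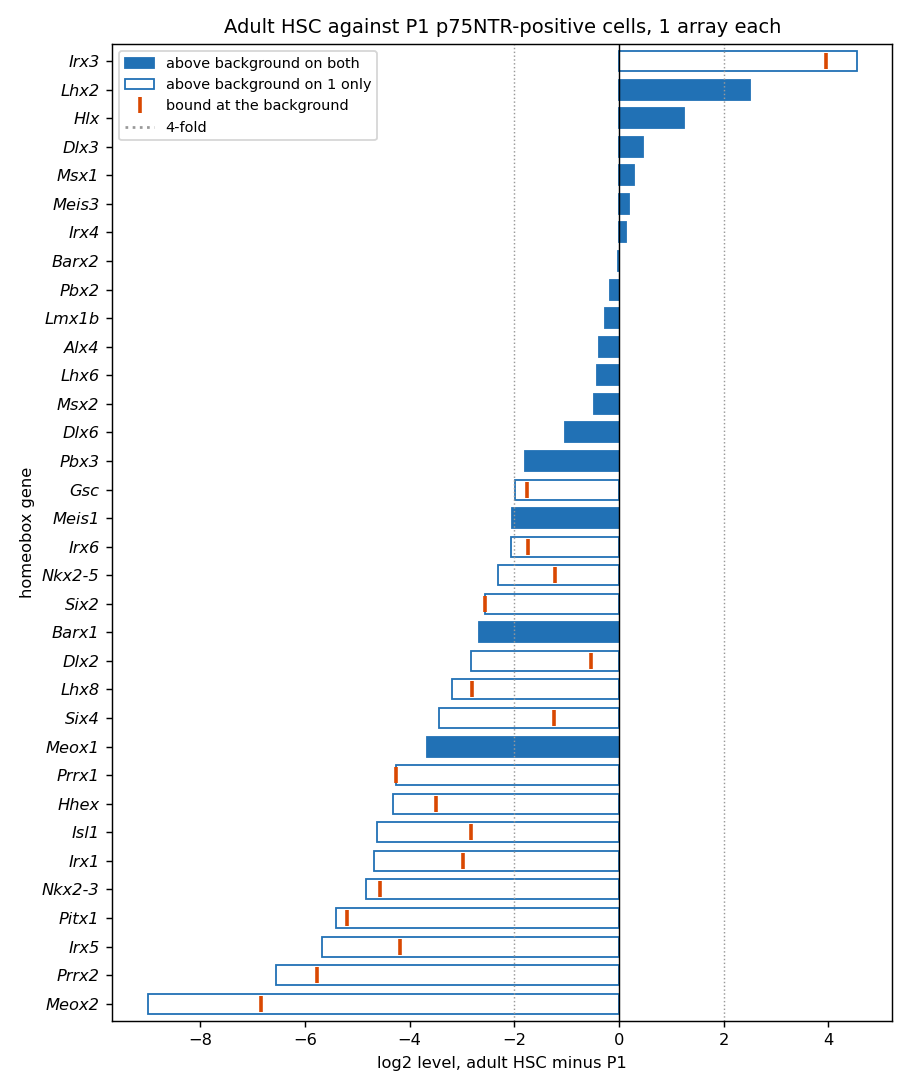
Difference in log2 level, adult HSC minus P1, for the 34 homeobox genes above background on at least 1 of the 2 arrays, with open bars where only 1 array was above background, a tick at the bound that the background allows, and dotted lines at 4-fold. Irx3 and Lhx2 lie beyond 4-fold on the higher side and 18 genes on the lower side, 15 of them with an open bar.

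Setting MSC against MEF, 5 of 43 members compared were at least 4-fold higher in MSC, where 3.19% of all genes were, and 14 were at least 4-fold lower, where 15.7% of all genes were. The median difference was -0.67 over the members and 0.05 over all genes. Each cell type had 1 array, so no test applies, and with normexp background correction 2 were higher and 6 lower. Nkx2-5 was at least 708-fold higher in MSC, and its MSC value of 3.13 was the highest of the 8 arrays. Dlx1, a factor of the forebrain and branchial arches, stood at -2.87 on MSC and -4.80 at E11.5, and was below background on MEF (-7.74) and the other 5 arrays (-8.01 to -6.74). It was at least 11.1-fold higher in MSC. Dlx2, its partner in the same tissues, stood at -2.42 at E11.5 and -5.40 at P1 and was below background at E13.5 (-8.39), E14.5 (-8.06), E17.5 (-8.14) and on adult HSC (-8.23), with 1.05 on MSC and -2 on MEF. Dlx2 was 8.30-fold higher in MSC, and both genes had their highest value there.

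Msx1, a factor of limb, tooth and skull mesenchyme, stood at -3.20, -4.56, -4.68, -4.59 and -3.65 from E11.5 to P1, -3.37 on adult HSC, -1.21 on MSC and -4.01 on MEF, and was 6.96-fold higher in MSC. Emx2 was 5.77-fold higher. With normexp background correction Msx1 (1.41 in log2), Emx2 (1.79) and Dlx1 (0.89) fell short of 4-fold. Msx2, the relative of Msx1, stood at -2.64, -2.64, -3.92, -4.26 and -3.54 from E11.5 to P1, -4.01 on adult HSC, -3.94 on MSC and -1.89 on MEF, and was 4.13-fold lower in MSC. The 2 Msx genes therefore differed in direction between the same arrays.

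Pitx1 gave the largest gap of the set on the lower side, at least 550-fold, and Meox2 was at least 150-fold lower in MSC. Irx2 was at least 90.7-fold lower, Alx1 at least 29.5-fold, Hhex at least 9.04-fold and Lhx8 at least 8.45-fold. Dlx5 was below background on MSC (-8.71), stood at -3.21 on MEF and was below background on the 6 liver-derived arrays (-8.21 to -5.65), which made it at least 10.3-fold lower in MSC. Both arrays were above background for Irx1 (28.6-fold lower), Meox1 (22.3-fold), Six2 (10.4-fold), Lhx9 (4.15-fold) and Msx2. Lhx9 and Msx2 fell short of 4-fold with median (-1.44 and -1.43 in log2) and quantile normalization (-1.40 and -1.50) and with normexp (-0.45 and -0.91), and Lhx9 with the mean of its probes (-1.60). For Isl1 and Barx1 the bounds were 2.86-fold and 2.40-fold. Markers of other cells also differed in this pair. Of 8 neural crest and glial markers compared, 5 were at least 4-fold lower in MSC and 0 higher (median -4.20). Of 11 leukocyte markers, 5 were lower and 0 higher (median -1.89). Of 9 mesothelial markers, 6 were lower and 1 higher (median -2.91), and the mesothelial sum was higher on MSC (8.7) than on MEF (2.76). Their part in these differences was not tested. Smaller differences, of -0.55 for Shox2, -1.50 for Prrx1 and -1.16 for Prrx2, stayed within 4-fold.

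**Figure D5:**
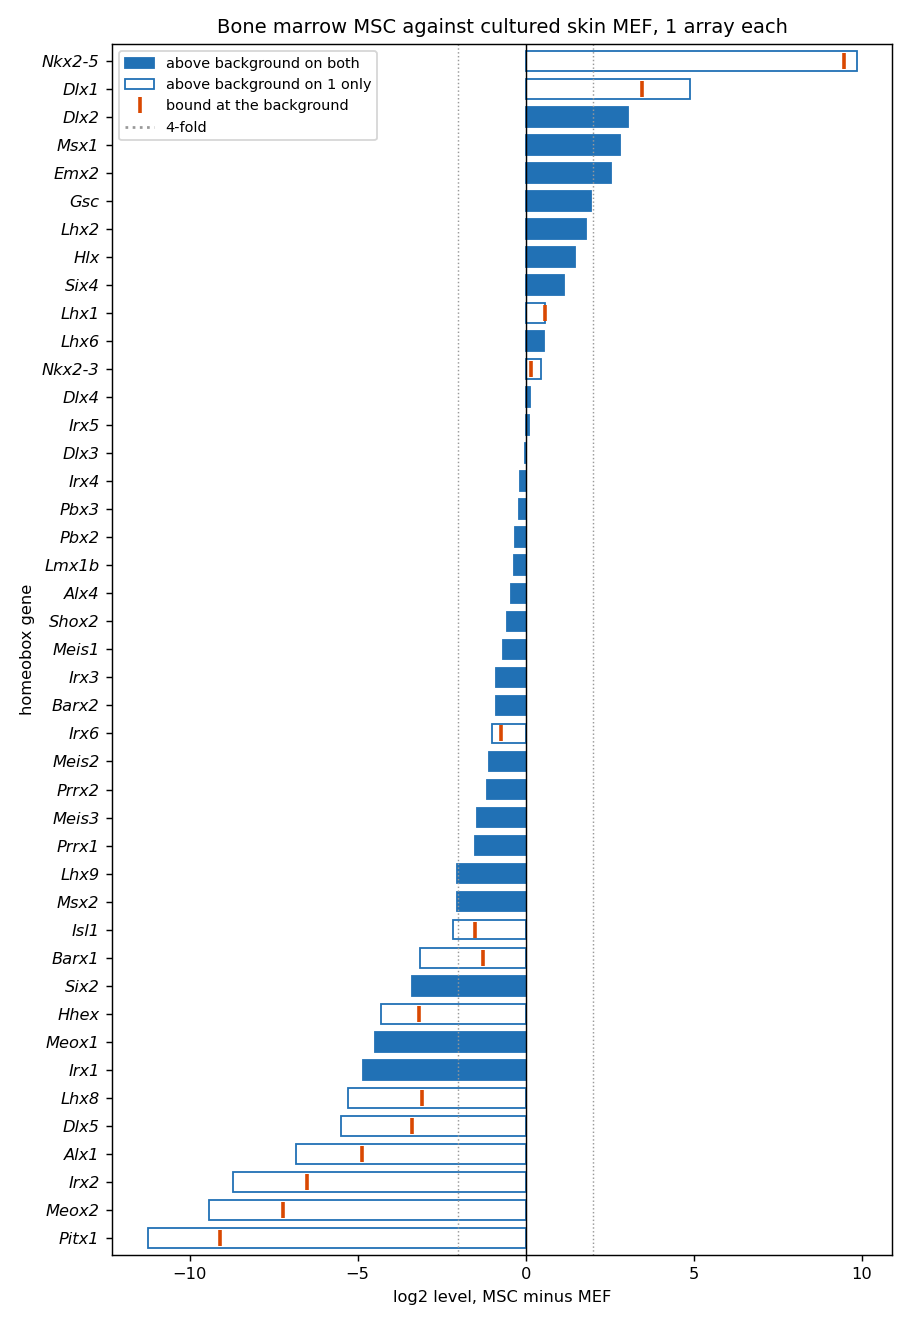
Difference in log2 level, MSC minus MEF, for the 43 homeobox genes above background on at least 1 of the 2 arrays, with open bars where only 1 array was above background, a tick at the bound that the background allows, and dotted lines at 4-fold. Nkx2-5, Dlx1, Dlx2, Msx1 and Emx2 lie beyond 4-fold on the higher side, and 14 genes, with Pitx1, Meox2 and Irx2 at the end, on the lower side.

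The Irx genes encode Iroquois factors that pattern heart, limb, lung and nervous system, and they lie in 2 groups of neighbours, Irx1, Irx2 and Irx4 on chromosome 13 and Irx3, Irx5 and Irx6 on chromosome 8. Irx1 stood at -3.26, -4.45, -1.90, -6.23 and -2.95 from E11.5 to P1 and -7.64 on adult HSC, against 3.51 on MEF and -1.33 on MSC, with E17.5 and adult HSC below background. Irx2 stood at -4.72, -5.72 and -4.99 at E11.5, E13.5 and E14.5 and was below background at E17.5 (-8.03), P1 (-8.01) and on adult HSC (-8.16), against -0.08 on MEF and -8.78 (below background) on MSC. Both were highest on MEF, and P1 and MSC held Irx1 without Irx2. A second Irx2 probe was above background on MEF only, so that its detection in the liver cells depends on the probe. Irx4 was above background on all 8 arrays, between -5.40 and -4.12, with no side apart.

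In the other group, Irx3 stood at -4.14 at E11.5, -5.17 at E14.5 and -1.85 on adult HSC and was below background at E13.5 (-6.62), E17.5 (-6.45) and P1 (-6.40), against 0.41 on MEF and -0.46 on MSC. Irx5 was below background from E11.5 to E17.5 (-4.82, -6.83, -6.55 and -6.30) and on adult HSC (-7.44) and stood at -1.77 at P1, against -1.99 on MEF and -1.88 on MSC. Irx6 stood at -2.81, -5.70, -5.24, -5.16 and -4.20 from E11.5 to P1 and -6.27 (below background) on adult HSC, against -5.84 on MEF and -6.85 (below background) on MSC. Adult HSC thus had Irx3 alone of the 3, and P1 had Irx5 and Irx6 without Irx3. The neighbours Irx3 and Irx5 were both above background on 2 arrays, 1 of them alone on 4 and neither on 2, and Irx1 and Irx2 were both above on 4, 1 alone on 2 and neither on 2.

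The Dlx genes lie in 3 neighbouring pairs. Dlx1 and Dlx2, on chromosome 2, were both above background on 2 arrays, 1 alone on 2 and neither on 4. Dlx5 and Dlx6, on chromosome 6, were never above background together: Dlx6 stood at -4.12 at P1 and -5.16 on adult HSC and was below background on the other 6 arrays (-8.35 to -6.74). Dlx6 was the only member seen on a liver-derived array and on neither MEF nor MSC, or 2.08% of the set, against 6.34% of all named genes. Dlx3, on chromosome 11, was above background on all 8 arrays, at 0.47, 0.09, 0.33, 0.76 and 1.11 from E11.5 to P1 and 1.56 on adult HSC, against 0.45 on MEF and 0.44 on MSC. Its neighbour Dlx4 was above background at E13.5, E14.5 and on MEF and MSC only, and all of its levels lay between -6.66 and -4.95, close to the background.

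The 14 members seen on all 8 arrays differed in their range over the arrays. Of these, 5 (Alx4, Barx2, Dlx3, Irx4 and Lhx6) kept their 8 values within 4-fold, or 35.7%, against 63.7% of the 11274 genes above background on all arrays, and the median range was 2.32 log2 units against 1.56. Lhx6, a LIM factor of forebrain interneurons and of tooth mesenchyme, stood at 2.59, 1.16, 1.94, 2.40 and 3.14 from E11.5 to P1 and 2.72 on adult HSC, against 1.35 on MEF and 1.89 on MSC. Its 2 other probes were above background on 2 arrays and 1 array, with liver-derived minus other differences of -0.73 and -1.09. These are mostly differences of background readings and set no direction. The probe used gave 0.70 (limma, adjusted p = 0.466). Alx4, a factor of skull and limb, lay between -4.49 and -3.59. Barx2, a factor of muscle and glands, lay between -3.36 and -2.17 by 1 probe, and its second probe was above background on no array. Lmx1b, the factor of dorsal limb and kidney podocytes, was above background on all arrays but E11.5, between -5.16 and -4.37 where it was seen, and Lhx1, a factor of kidney and head, at E14.5 (-5.02) and on MSC (-5.63) only.

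Further homeobox genes outside the set were counted in the same comparisons, beside 1.57% of all genes that passed between the sides (limma). Of 68 further homeobox genes of other classes, 49 were tested between the liver-derived arrays and MEF and MSC, and 1 was higher (Six5, a relative of Six4, by 1.75 ± 0.30 SE, limma, adjusted p = 0.0377) and 1 lower (Msx3, by limma, adjusted p = 0.0492, at least 1.38-fold and above background on MSC alone). Over the stages 0 of 42 passed. An unadjusted p under 0.05 was found for 6 of them (limma), where 28.1% of all genes had one. Between adult HSC and P1, 2 of 42 compared were at least 4-fold higher and 8 lower, beside the 2 and 18 of 34 members. Over all genes 5.21% were higher and 15.9% lower in that pair. Between MSC and MEF, 2 of 45 were at least 4-fold higher and 16 lower, where 3.19% and 15.7% of all genes were. The difference between the lists was not tested. Among transcription factors of other families listed as context, 7 of 12 hepatic mesenchyme genes were higher on the liver-derived side and 0 lower (limma). Of 14 skin fibroblast and limb factors, 3 were lower and 0 higher, and these 3 were below background on all 6 liver-derived arrays. Over all genes 0.848% were higher and 0.726% lower. Both lists were chosen with earlier results of these data known, so their directions are no independent support.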

How the data were processed

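Signals of 8 Agilent one-colour arrays were deposited as scanner output of Agilent Feature Extraction 11.5.1.1, per the file headers: a processed spot intensity, background-subtracted and spatially detrended. The authors also deposited a log2 table that they scaled to the 75th percentile, per the series' design text. It served as an alternative. The array's design names build mm9, and no coordinates were taken from it.

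Here the level was log2 of the processed intensity minus the array's log2 75th percentile over non-control spots. Outlier spots, as marked by the scanner software, were left out, and a probe's spots were averaged. A probe was above background where the majority of its remaining spots were called so. RefSeq accessions named 26581 of 39429 probes (67.4%), and a gene was given by its probe with the highest mean. Groups came from the sample titles. The limma (3.58.1, R 4.3.3) fits, checked on simulated data, ran over all named genes above background on at least 1 array compared, with Benjamini-Hochberg adjustment. Arrays of a side are different stages or cell types, not replicates, and array number limits the precision. Pairs of arrays had no test and a threshold of 4-fold.

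Values on every array are given for members that passed a fit, separated the sides by detection, stood 4-fold apart in a pair or were above background on all arrays, and others by range. Non-members come from fixed lists, with Tlx1 and the called homeobox genes among them named after their values were seen. Members and lists were chosen with earlier results of these data known. Normexp used median signals, since no mean signal column was used here. Other alternatives were quantile and median normalization, a stricter filter and none, the mean of all probes, a floor, a mean-variance trend, slide, leaving out each array and, added after seeing the data, outlier spots kept.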

Additional observations from a re-analysis of the deposited data

How the results depend on the processing

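With normexp background correction, Lhx2 kept its call (6.26, adjusted p = 0.00138 by limma), while Shox2 (-0.22, adjusted p = 0.854), Emx2 (-1.14, 0.525) and Hlx (2.16, 0.0935) did not; 1 member was higher and 0 lower among 52 genes called, and slopes turned to -0.11 for Lhx8 and -0.26 for Lmx1b, with 3 members at an unadjusted p under 0.05. Dlx6 turned to -0.10 at P1 against E11.5, where 0 members were then at least 4-fold higher and 3 lower. The same correction left 1 higher and 3 lower for adult HSC against P1, and 2 and 6 for MSC against MEF. It compresses dim probes by construction, through its offset of 50, and the cause of each loss was not tested. The median of all genes moved from 0.02 to 0.34 with normexp and to -0.36 with median normalization, which left 1 member higher (Hlx, 2.59, adjusted p = 0.106, lost its call) and put 8 members at least 4-fold higher in MSC.

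Among genes above background on every array compared, 160 genes were called between the sides, with 0 members lower and 3 at an unadjusted p under 0.05, since Emx2 and Shox2 were not tested. Over the stages 657 genes were called, 1 member lower (Pbx2) and 4 at an unadjusted p under 0.05. In the pairs, 1 higher and 6 lower were found for P1 against E11.5, 1 and 3 for adult HSC against P1, and 3 and 5 for MSC against MEF. For the pairs, the shares over all genes under the alternative settings are not given here. Over the stages 107 genes and 1 member were called with quantile normalization, and 1146 genes and 3 members with the mean-variance trend. With 1 stage left out at a time, 0 genes were called. With slide as a block 74 genes and 1 higher member were called. Within slide 2 (P1 and adult HSC against MEF and MSC) 0 genes and 0 members passed by limma, at differences of 8.25 for Lhx2, 2.96 for Hlx, -6.5 for Emx2 and -5.22 for Shox2. Leaving out 1 array at a time, 82 to 1278 genes were called (1278 without MEF, 524 without adult HSC, 171 without P1, 93 without E13.5, 89 without E14.5, 82 without E17.5), 1 to 3 members were higher and 2 to 3 lower. A lone array on a side was then assumed to vary like the others. No paired analysis was possible because each group had 1 array. Signal over background limits the dim members: of the 18 lower on adult HSC, 15 were below background there.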
